A study of Homo sapiens with 12 samples.

Results

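The genes described here are 8 protein arginine methyltransferases (CARM1, PRMT1, PRMT2, PRMT3, PRMT5, PRMT6, PRMT7 and PRMT9) and WDR77, the partner protein of PRMT5. These 9 genes were listed by name, without use of their values, and found by Ensembl identifier among 58662 annotated genes. All 9 were among the 12830 coding genes that were tested. The question was whether other arginine methyltransferases change at the mRNA level when CARM1 or a subunit of the NuRD complex is lost.

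RNA-seq libraries were made from HEK293T cells, an established human embryonic kidney line, grown in DMEM with 10% FBS. Cells were transfected with a control siRNA (siCTL, the genotype WT in the labels) or with siCARM1, siCHD4, siHDAC2, siGATAD2A or siKDM1A, and each of the 6 groups holds 2 libraries. CHD4 is the ATPase of the NuRD complex, a chromatin remodeler with histone deacetylase activity. HDAC2 is one of its deacetylases, GATAD2A one of its zinc-finger subunits, and KDM1A is a histone lysine demethylase found with the complex. Every group, siCTL included, had received an siRNA. The labels do not say whether the 2 libraries of a group came from separate cultures, so p-values measure the spread between these libraries, which may be technical.

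Protein arginine methyltransferases move a methyl group from S-adenosylmethionine to the nitrogen atoms of an arginine side chain. Type I enzymes (PRMT1, PRMT2, PRMT3, CARM1, PRMT6 and PRMT8) place both methyl groups on the same nitrogen, type II enzymes (PRMT5 and PRMT9) place them on different nitrogens, and the type III enzyme PRMT7 stops after 1 methyl group. Their substrates include histone tails, RNA-binding proteins and splicing factors, and CARM1 is known as a coactivator of transcription.

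Read pairs on the reverse strand, the one read with this directional kit, gave 19308315 to 28648657 counts on genes per library. Levels are given as CPM (counts scaled to the library size with edgeR's TMM factors) when 1 gene is followed across libraries, and as FPKM (counts scaled to the library total and to exon length) when genes are compared with each other. A gene counted as called when it passed both a threshold of 0.05 on the p of edgeR's quasi-likelihood test, adjusted by Benjamini and Hochberg over all tested genes, and a 1.2-fold change (0.26 on the log2 scale). All 5 comparisons use the same 2 siCTL libraries. In bulk libraries such as these, fewer cells that express a gene and less of its RNA per cell cannot be told apart. The log2 fold change of the targeted mRNA was −2.35 in siHDAC2, −1.74 in siGATAD2A and −2.59 in siKDM1A, but −0.54 in siCHD4. Among genes known in HEK293 lines, VIM lay between 46.4 and 137 FPKM and LHX1 between 2.53 and 4.07 FPKM, while NEFM, INA and PAX2 reached at most 0.196, 1.23 and 0.331 FPKM. The breast cancer markers ESR1 and TFF1 reached at most 0.0399 and 0.398 FPKM, while GATA3 (3.01 to 5.05 FPKM) and KRT19 (32.3 to 43.6 FPKM) were present. Markers of leukocytes and hepatocytes summed to at most 0.162 and 0.473 FPKM.

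In siCTL the most abundant of the 9 mRNAs was that of PRMT1, the main enzyme of asymmetric dimethylation, at 58.7 and 63.9 FPKM. PRMT5, the main enzyme of symmetric dimethylation, followed at 35.6 and 36.1 FPKM. CARM1 (26.7 and 27.2 FPKM) and WDR77 (26.1 and 26.7 FPKM) were next, and their libraries overlapped. PRMT3 lay at 12.9 and 14.2 FPKM and PRMT6 at 8.74 and 9.38 FPKM. PRMT9 (4.65 and 5.69 FPKM) and PRMT2 (4.79 and 5.34 FPKM) overlapped, and PRMT7 was lowest at 4.25 and 4.45 FPKM. The median tested gene had 6.49 FPKM in siCTL, so 6 of the 9 genes were above it and 3 below. The exons of PRMT7 cover 13884 bases when all transcripts are joined, against 2685 to 7603 bases for the others, and this length enters its FPKM. PRMT8, the type I enzyme known from brain, had 0, 1 or 2 counts in each of the 12 libraries and was not tested.

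**Figure D1:**
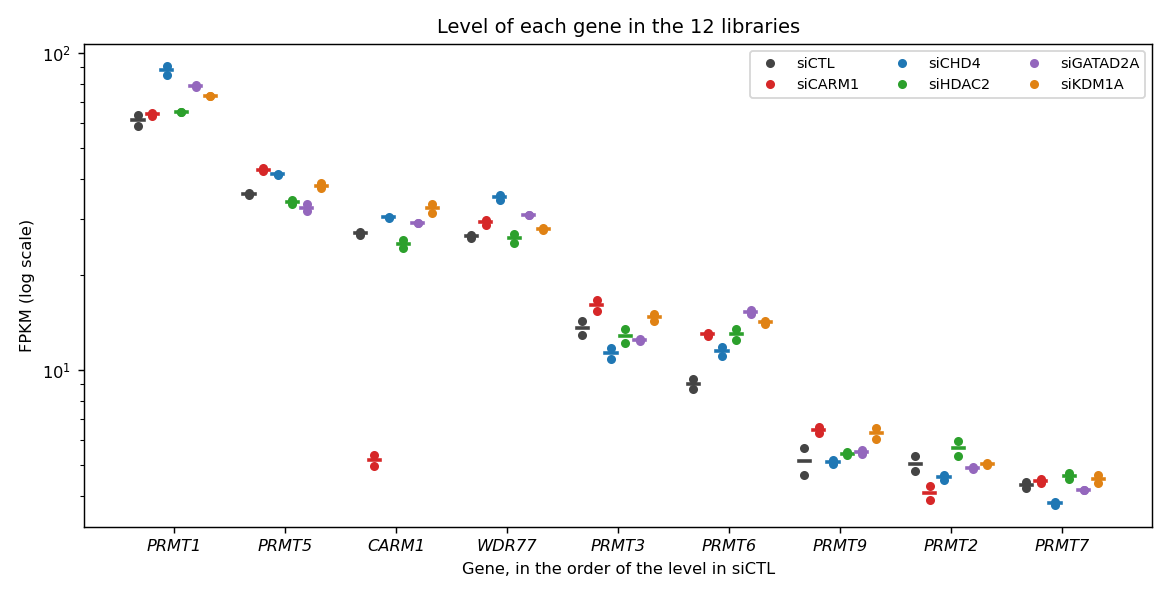
FPKM (log axis) of the 9 genes in the 12 libraries, by siRNA, with 1 point per library and a bar at the mean of 2. PRMT1 is highest and PRMT7 near the bottom in each group, CARM1 is at 5.38 FPKM or less in siCARM1 and at 24.3 FPKM or more in each other group, and both siCTL points of PRMT6 lie below all 10 others.

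CARM1 methylates histone H3 and many non-histone proteins. Its gene (ENSG00000142453.12) spans 10982229 to 11033751 on the forward strand of chromosome 19 (GRCh37, as for all genes here). CARM1 mRNA was at 127 and 125 CPM in siCTL and at 25.2 and 23.4 CPM in siCARM1. The log2 fold change was −2.37 ± 0.0588 (SE, edgeR adjusted p = 6.2e-24), a 5.18-fold lower level. With this fall CARM1 moved from the third place of the 9 genes in siCTL to the seventh in siCARM1, below PRMT9. CARM1 shares 20.2% of its exonic bases with YIPF2 on the opposite strand, which had 1079 to 2024 counts per library. Counts on the strand opposite to CARM1 were 11.6% to 78.2% of its own over the libraries, with a median of 16.4%. Its own counts, by which this share is divided, were 661 and 490 in siCARM1 and 2215 or more in the other libraries. The PCR primers of the study for CARM1 mRNA are shown because they mark the coding stretch by which this knockdown can be followed outside RNA-seq.
CARM1 forward primer: aaaccacaccgacttcaagg
CARM1 reverse primer: tggaggtagctctccagcat
Both match GRCh37 once read along the transcript, the forward primer in exon 4 of 16 at chr19:11019859-11019878 and the reverse primer, on the opposite strand, in exon 6 at chr19:11024685-11024704. They enclose 288 bases of the spliced mRNA.

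In the NuRD knockdowns CARM1 lay closer to siCTL than it did in siCARM1, at log2 fold changes from −0.10 to 0.26. It was measured at 146 and 145 CPM in siCHD4, 114 and 121 CPM in siHDAC2, 136 and 136 CPM in siGATAD2A and 157 and 146 CPM in siKDM1A. Both libraries were above siCTL in siCHD4, siGATAD2A and siKDM1A and below it in siHDAC2. The log2 fold changes were 0.21 (edgeR adjusted p = 0.00042) in siCHD4, −0.10 (adjusted p = 0.13) in siHDAC2 and 0.11 (adjusted p = 0.070) in siGATAD2A, and none was called. In siKDM1A CARM1 was called higher with a log2 fold change of 0.26 ± 0.0489 (SE, edgeR adjusted p = 6.0e-05), which sits on the fold minimum and was called in 8 of 22 alternative analyses. In the other direction, CHD4 was lower in siCARM1 (−0.32, edgeR adjusted p = 0.00039), while HDAC2, GATAD2A and KDM1A were not called there. CHD4 and ENSG00000285238, a neighbour on its own strand, have 46.9% of the exonic bases of CHD4 in common, where pairs are not counted.

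Of the 9 genes, siCARM1 had 4 called, siCHD4 3, siHDAC2 1, siGATAD2A 2 and siKDM1A 3. Of all tested genes siCARM1 had 29.4% called, siCHD4 48.8%, siHDAC2 19.6%, siGATAD2A 33.9% and siKDM1A 25.7%. Over the 5 comparisons 13 of 45 values were called (28.9%), close to the 31.5% of all tested genes. Among them 11 were higher and 2 lower, 1 of the lower ones being CARM1 under its own siRNA, which was fixed in advance. Without CARM1, 3 of the other 8 genes were called in siCARM1. Over the 5 comparisons 11 of 40 values of these 8 genes were called (27.5%), 10 higher and 1 lower. Over all tested genes 15.9% of values were higher and 15.6% lower. The 9 genes had a median log2 fold change of 0.15 under siCARM1, 0.21 under siCHD4, 0.08 under siHDAC2, 0.09 under siGATAD2A and 0.12 under siKDM1A, where that of all tested genes lay between −0.0024 and 0.0051. By the adjusted p alone, 7, 7, 1, 4 and 4 of the 9 genes passed in this order of knockdowns, against 46.7%, 65.7%, 35.4%, 51.5% and 42.3% of tested genes. Without CARM1, the median of the other 8 genes in siCARM1 was 0.19, and 6 of them passed by the adjusted p alone. All 9 genes differed among the 6 groups by edgeR's test at an adjusted p of 0.05 or less, as did 91.1% of tested genes.

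**Figure D2:**
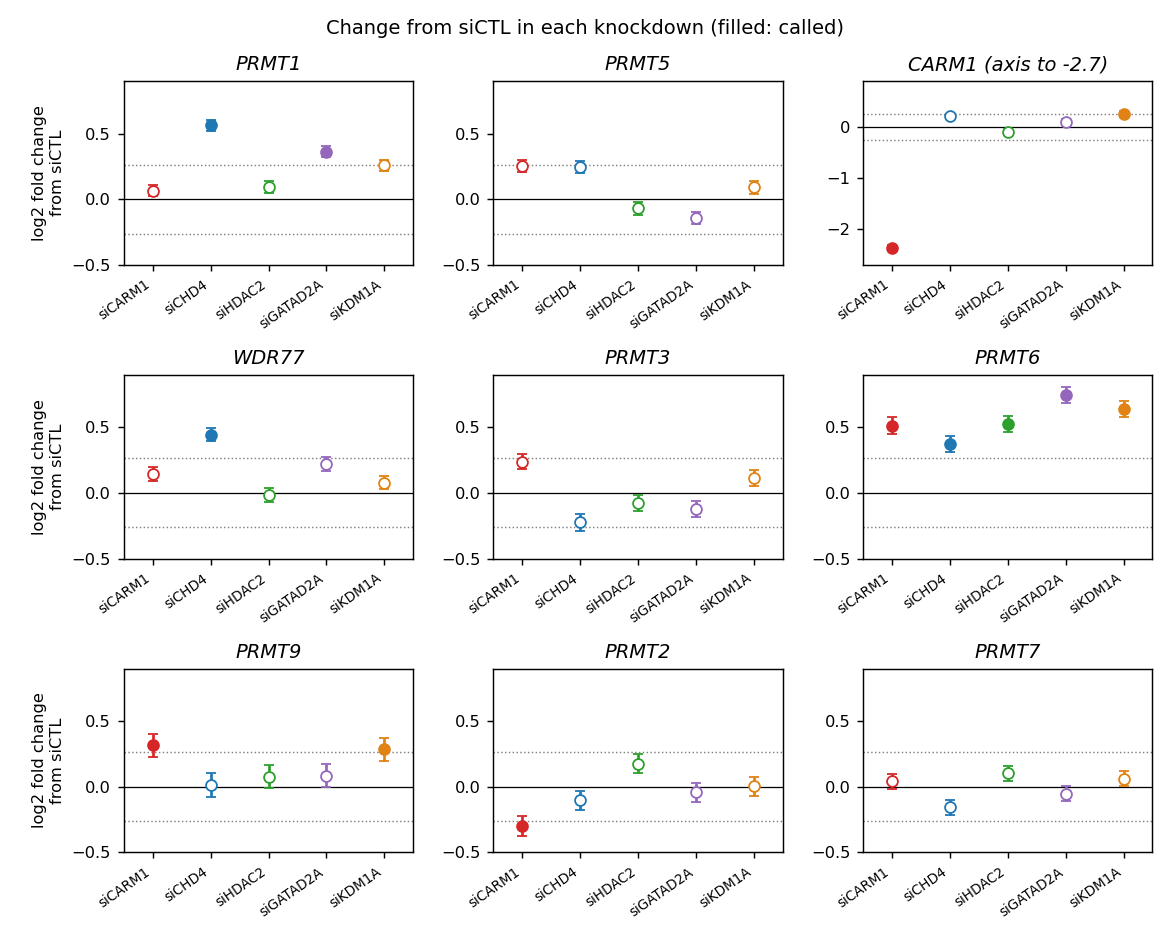
Log2 fold change from siCTL (vertical axis, error bars 1 standard error from edgeR, 2 libraries per group) of each gene in the 5 knockdowns, with filled points where the gene was called and dotted lines at the fold minimum of 1.2. PRMT6 is filled in all 5 knockdowns, PRMT3, PRMT5 and PRMT7 in none, and the CARM1 panel has a longer axis.

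PRMT6 was the only one of the 9 genes called higher in all 5 knockdowns, a pattern that 2.28% of tested genes shared (292 of 12830). PRMT6 is a nuclear type I enzyme that methylates histone H3. Its gene (ENSG00000198890.9) covers 107599296 to 107610258 of chromosome 1. Its siCTL levels were 40.0 and 43.2 CPM. The levels were 58.8 and 60.3 CPM in siCARM1, 55.8 and 52.2 CPM in siCHD4, 57.4 and 62.3 CPM in siHDAC2, 71.0 and 68.8 CPM in siGATAD2A, and 65.8 and 64.3 CPM in siKDM1A. Each of the 10 knockdown libraries was above both siCTL libraries, with the highest values in siGATAD2A. Its log2 fold change (± SE) was largest with siGATAD2A (0.75 ± 0.0620) and siKDM1A (0.64 ± 0.0626), followed by siHDAC2 (0.52 ± 0.0630) and siCARM1 (0.51 ± 0.0629), and smallest with siCHD4 (0.37 ± 0.0636). Adjusted p-values from edgeR ran from 1.5e-11 in siGATAD2A to 6.6e-06 in siCHD4, and each of these calls was also made in 22 of 22 alternative analyses. Of the 22, that without a fold minimum cannot lose a call. Those that leave out a library of another group keep the counts of the groups compared, and all use siCTL. The largest change is a 1.68-fold rise. The 2 siCTL libraries also had the lowest share of pairs on no feature (17.2% and 18.0%, against 18.5% to 21.2% in the knockdowns) and the highest share of counts on identifiers without annotation (2.58% and 2.61%, against 1.75% to 2.35%), and the part of these shares in the PRMT6 result was not tested.

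Between knockdowns, where siCTL is not used, PRMT6 was lower in siCHD4 than in siGATAD2A (log2 difference −0.37, edgeR adjusted p = 2.5e-06) and than in siKDM1A (−0.27, edgeR adjusted p = 0.00024). The other 8 pairs of knockdowns were not called for PRMT6. Over the 9 genes, 29 of the 90 differences between a pair of knockdowns were called, against 33.9% of such differences over all tested genes. Of these, 6 were for CARM1, 5 for PRMT1, 4 each for PRMT3 and PRMT5, 3 each for PRMT2 and WDR77, 2 each for PRMT6 and PRMT9, and 0 for PRMT7. Those of CARM1 include every pair with siCARM1 (log2 differences −2.28 to −2.64), which its own siRNA fixed in advance.

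PRMT1 makes most of the asymmetric dimethylarginine of mammalian cells. Its gene (ENSG00000126457.22) covers 50179043 to 50192286 of chromosome 19. Its mRNA stood at 298 and 325 CPM in siCTL. Levels were 329 and 322 CPM in siCARM1, 475 and 445 CPM in siCHD4, 332 and 332 CPM in siHDAC2, 398 and 403 CPM in siGATAD2A, and 373 and 372 CPM in siKDM1A. The siCARM1 libraries overlapped siCTL, and those of the 4 NuRD knockdowns lay above it. PRMT1 was called higher in siCHD4 with a log2 fold change of 0.56 ± 0.042 (SE, edgeR adjusted p = 5.4e-13) and in siGATAD2A with 0.36 ± 0.042 (SE, edgeR adjusted p = 1.6e-08), and both were called in 22 of 22 alternatives. In siKDM1A it missed the fold minimum, at 0.26 (edgeR adjusted p = 1.1e-05), and was called in 3 of 22 alternatives, among them that without siCTL replicate 2 (0.32). In siCARM1 the log2 fold change was 0.06, with a 95% interval from −0.02 to 0.15, and in siHDAC2 it was 0.09, with an interval from 0.01 to 0.18. These values rest on the 2 siCTL libraries, which differ for PRMT1: without siCTL replicate 1 they were 0.0028 and 0.03, and without siCTL replicate 2 they were 0.13 and 0.16, none of them called. Tested directly, PRMT1 was higher in siCHD4 than in siHDAC2 (0.47, edgeR adjusted p = 2.8e-11) and siKDM1A (0.30, edgeR adjusted p = 1.7e-07), and it was lower in siCARM1 than in siCHD4 (−0.50, edgeR adjusted p = 8.7e-12). Compared with siGATAD2A, PRMT1 was lower in siCARM1 (−0.30, edgeR adjusted p = 5.1e-07) and in siHDAC2 (−0.27, edgeR adjusted p = 3.3e-06).

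PRMT2, a type I enzyme with an SH3 domain, was the only enzyme other than CARM1 called lower in a knockdown. Its gene (ENSG00000160310.18) covers 48055507 to 48085036 of chromosome 21. PRMT2 mRNA was at 42.9 and 38.7 CPM in siCTL and 34.6 and 31.3 CPM in siCARM1, so that the groups did not overlap. The log2 fold change was −0.30 ± 0.0732 (SE, edgeR adjusted p = 0.0012). It fell short of the fold minimum without siCTL replicate 1 (−0.23) and without siCARM1 replicate 2 (−0.24). In the other knockdowns PRMT2 was measured at 38.7 and 37.2 CPM in siCHD4, 43.4 and 48.3 CPM in siHDAC2, 39.7 and 39.3 CPM in siGATAD2A and 41.1 and 40.5 CPM in siKDM1A, and none of these was called. PRMT2 was also lower in siCARM1 than in siHDAC2 (−0.48, edgeR adjusted p = 4.4e-06) and than in siKDM1A (−0.30, edgeR adjusted p = 0.0013), comparisons that do not use siCTL.

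PRMT3 is a cytosolic type I enzyme known to methylate a protein of the small ribosomal subunit. Its gene (ENSG00000185238.13) covers 20409104 to 20530884 of chromosome 11. Its levels were 82.4 and 75.1 CPM in siCTL, 89.2 and 96.6 CPM in siCARM1 and 64.5 and 70.0 CPM in siCHD4. The siCARM1 libraries were above siCTL and the siCHD4 libraries below it. Neither change reached the fold minimum, at 0.24 in siCARM1 (edgeR adjusted p = 0.0015) and −0.22 in siCHD4 (edgeR adjusted p = 0.0020), though leaving out 1 library raised the first past it without siCTL replicate 1 (0.31) or siCARM1 replicate 1 (0.30) and the second without siCTL replicate 2 (−0.30) or siCHD4 replicate 2 (−0.29). The difference between siCARM1 and siCHD4 was called, at 0.46 ± 0.060 (SE, edgeR adjusted p = 6.6e-08). PRMT3 was also higher in siCARM1 than in siHDAC2 (0.31, edgeR adjusted p = 0.00012) and siGATAD2A (0.36, edgeR adjusted p = 6.6e-06). It was lower in siCHD4 than in siKDM1A (−0.34, edgeR adjusted p = 1.2e-05).

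PRMT5, the main type II enzyme, acts in a complex with WDR77 and methylates histones and Sm proteins of the spliceosome. Its gene (ENSG00000100462.16) covers 23389734 to 23398617 of chromosome 14, on the reverse strand. PRMT5 mRNA was at 123 and 125 CPM in siCTL. Under the siRNAs it was at 147 and 150 CPM in siCARM1, 146 and 148 CPM in siCHD4, 116 and 120 CPM in siHDAC2, 110 and 116 CPM in siGATAD2A, and 130 and 134 CPM in siKDM1A. Libraries of siCARM1, siCHD4 and siKDM1A were above siCTL, and those of siHDAC2 and siGATAD2A below it. No change from siCTL reached the fold minimum. The log2 fold changes were 0.25 in siCARM1 (edgeR adjusted p = 3.8e-05), 0.25 in siCHD4 (adjusted p = 3.1e-05) and −0.14 in siGATAD2A (adjusted p = 0.013), and the first was called without siCTL replicate 2 (0.26) or without siCARM1 replicate 1 (0.27). Between knockdowns PRMT5 was higher in siCARM1 than in siHDAC2 (0.33, edgeR adjusted p = 1.9e-06) and siGATAD2A (0.40, edgeR adjusted p = 1.9e-08), and in siCHD4 than in siHDAC2 (0.32, edgeR adjusted p = 5.6e-07) and siGATAD2A (0.39, edgeR adjusted p = 1.7e-08). PRMT5 shares 28.2% of its exonic bases with PRMT5-AS1 on the opposite strand, which had 6 to 19 counts per library. Counted without regard to strand, the siGATAD2A value of PRMT5 was −0.05 and that of siHDAC2 −0.01.

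WDR77 (also called MEP50) is the WD-repeat protein that binds substrates for PRMT5. Its gene (ENSG00000116455.14) covers 111982512 to 111991878 of chromosome 1, on the reverse strand. Its siCTL libraries had 74.1 and 76.1 CPM. The knockdowns had 84.8 and 81.4 CPM in siCARM1, 104 and 101 CPM in siCHD4, 76.4 and 72.1 CPM in siHDAC2, 87.4 and 87.5 CPM in siGATAD2A, and 79.0 and 79.7 CPM in siKDM1A. The siHDAC2 libraries overlapped siCTL, and those of the other 4 knockdowns lay above it. Against siCTL, WDR77 was called higher in siCHD4 and in no other knockdown, at 0.45 ± 0.0518 (SE, edgeR adjusted p = 8.1e-09), also in 22 of 22 alternatives. In siGATAD2A the log2 fold change was 0.22 (edgeR adjusted p = 0.00079), under the fold minimum. WDR77 was higher in siCHD4 than in siHDAC2 (0.46, edgeR adjusted p = 2.9e-09) and siKDM1A (0.37, edgeR adjusted p = 2.5e-07), and lower in siCARM1 than in siCHD4 (−0.30, edgeR adjusted p = 6.1e-06). The difference between siCHD4 and siGATAD2A was 0.23 (edgeR adjusted p = 0.00026), under the fold minimum. A gene on the same strand, ENSG00000243960, shares 25.1% of the exonic bases of WDR77 and had 10 to 37 counts.

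Part of the WDR77 promoter is shown because it holds a repeated motif that the promoters of the other 8 genes do not. Promoters were taken from RefSeq on GRCh38.p14 as 250 bases before and 50 bases after the start of each gene, and all 9 genes had at least 1. Among all strings of 10 bases that read the same on both strands, 1 occurred more than once in the promoter of any of the 9 genes. This was TCTCGCGAGA, found 2 times in the WDR77 promoter, with its first base 195 and 49 bases before the start. Both stretches are given along the gene's strand with the motif in capitals.
WDR77 at chr1:111449432-111449461, reverse strand: cgctcacaagTCTCGCGAGAtgaaaatttt
WDR77 at chr1:111449286-111449315, reverse strand: tagaagcaatTCTCGCGAGAagtagagttg
No promoter of the other 8 genes held these 10 letters, nor did that of MAT2A, the gene nearest to WDR77 in its changes. The motif was in 0.424% of 35116 promoters and at least 2 times in 0.0228%. Since it was picked for its repeat in WDR77, these shares describe it and are no test. The motif CCAAT, searched on both strands, was found 3 times in the promoter of PRMT5 and 2 times in that of PRMT1, and in no promoter of the other 7 genes. It was in 34.6% of all promoters and at least 2 times in 10.8%.

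PRMT9 is a type II enzyme known to methylate a splicing factor. Its gene (ENSG00000164169.13) covers 148558936 to 148605314 of chromosome 4, on the reverse strand. PRMT9 mRNA was at 19.4 and 23.9 CPM in siCTL, 26.5 and 27.7 CPM in siCARM1 and 25.5 and 27.5 CPM in siKDM1A. The 2 siCTL libraries were far apart for this gene, with replicate 1 the lowest of all 12 libraries. PRMT9 was called higher in siCARM1 (0.32 ± 0.0876 SE, edgeR adjusted p = 0.0035) and in siKDM1A (0.28 ± 0.0880 SE, edgeR adjusted p = 0.0097). Without siCTL replicate 1 these values were 0.18 and 0.15 and neither was called, and the second was also lost without siKDM1A replicate 2 (0.23). In siCHD4 (22.3 and 21.6 CPM), siHDAC2 (22.6 and 23.3 CPM) and siGATAD2A (22.8 and 23.4 CPM) PRMT9 lay between the 2 siCTL libraries. Without use of siCTL, PRMT9 was higher in siCARM1 than in siCHD4 (0.30, edgeR adjusted p = 0.0027) and lower in siCHD4 than in siKDM1A (−0.27, edgeR adjusted p = 0.0071).

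PRMT7, the type III enzyme, was called in none of the 5 knockdowns and in none of the 10 pairs. Its gene (ENSG00000132600.17) covers 68344854 to 68394755 of chromosome 16. PRMT7 mRNA was at 62.2 and 65.6 CPM in siCTL, and the 10 knockdown libraries ran from 56.8 to 70.3 CPM with a median of 64.7 CPM. The lowest levels were in siCHD4 (56.8 and 57.9 CPM), below both siCTL libraries, with a log2 fold change of −0.16 (95% interval −0.28 to −0.04, edgeR adjusted p = 0.017). In siCARM1 it was 0.04, with a 95% interval from −0.07 to 0.16.

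The FPKM values of the 8 enzymes were summed to set the loss of CARM1 mRNA beside the levels of the others. In siCTL the sum was 161 ± 3.58 FPKM (SD, n = 2), of which CARM1 made up 16.7% ± 0.607 (SD, n = 2). In siCARM1 it was 156 ± 0.421 FPKM (SD, n = 2), with CARM1 at 3.32% ± 0.182 (SD, n = 2). Without CARM1, the other 7 enzymes summed to 134 ± 3.96 FPKM (SD, n = 2) in siCTL and 151 ± 0.690 FPKM (SD, n = 2) in siCARM1, a mean that was 16.5 FPKM higher where the mean of CARM1 itself changed by −21.8 FPKM. Mean FPKM went from 35.8 to 42.8 for PRMT5, 61.3 to 64.1 for PRMT1, 13.6 to 16.0 for PRMT3 and 4.35 to 4.47 for PRMT7. None of these was called in siCARM1. The called genes went from 9.06 to 13.0 FPKM (PRMT6), 5.17 to 6.48 (PRMT9) and 5.07 to 4.10 (PRMT2). The same 7 enzymes summed to 166 ± 3.73 FPKM in siCHD4, 140 ± 0.981 FPKM in siHDAC2, 154 ± 1.81 FPKM in siGATAD2A and 156 ± 1.57 FPKM in siKDM1A (SD, n = 2 each). In each knockdown both sums were above both siCTL sums, and the sum in siCARM1 was lower than in siCHD4, siGATAD2A and siKDM1A. PRMT1 alone was 38.0% of the 8-enzyme sum in siCTL and 44.9% in siCHD4. With 2 libraries a group the smallest two-sided p of an exact permutation test is 0.333, and these sums were not tested.

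**Figure D3:**
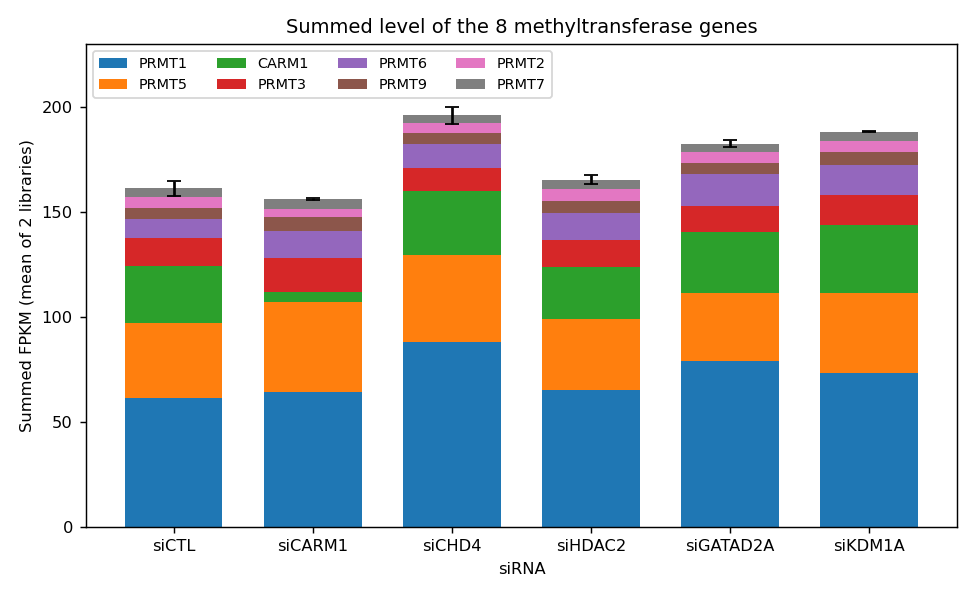
Summed FPKM of the 8 methyltransferases by siRNA (bars stacked by gene, means of 2 libraries, error bars SD of the sum). The green CARM1 segment shrinks in siCARM1, where the whole bar (156 FPKM) stays near siCTL (161 FPKM), and the tallest bar is siCHD4.

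The partners of PRMT5 and the enzymes of the methyl donor were examined beside the members. CLNS1A and RIOK1 bind PRMT5 as alternative substrate adaptors, and COPRS links it to histones. All 3 were called higher in siCHD4, with log2 fold changes of 0.38, 0.41 and 0.37 (adjusted p = 2.4e-08, 4.1e-05 and 1.4e-05 from edgeR). CLNS1A was also called higher in siCARM1 (0.30) and siGATAD2A (0.29), so that 5 of 15 values of these partners were called (33.3%), all of them higher, against 31.5% over all tested genes (15.9% higher) and 48.8% in siCHD4. MAT2A makes S-adenosylmethionine, AHCY removes the product that inhibits methyltransferases, and MTAP removes methylthioadenosine, a known inhibitor of PRMT5. MAT2A was called higher in siCHD4 (0.44, edgeR adjusted p = 3.4e-11) with 435 and 428 CPM against 316 and 319 CPM in siCTL. AHCY was called higher in siKDM1A (0.34) and MTAP lower in siGATAD2A (−0.28), and 3 of the 20 values of the 4 methyl donor enzymes were called in all (15.0%, against 31.5% over all tested genes). The related methyltransferases NDUFAF7 and METTL23 were called in none of 10 values.

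**Figure D4:**
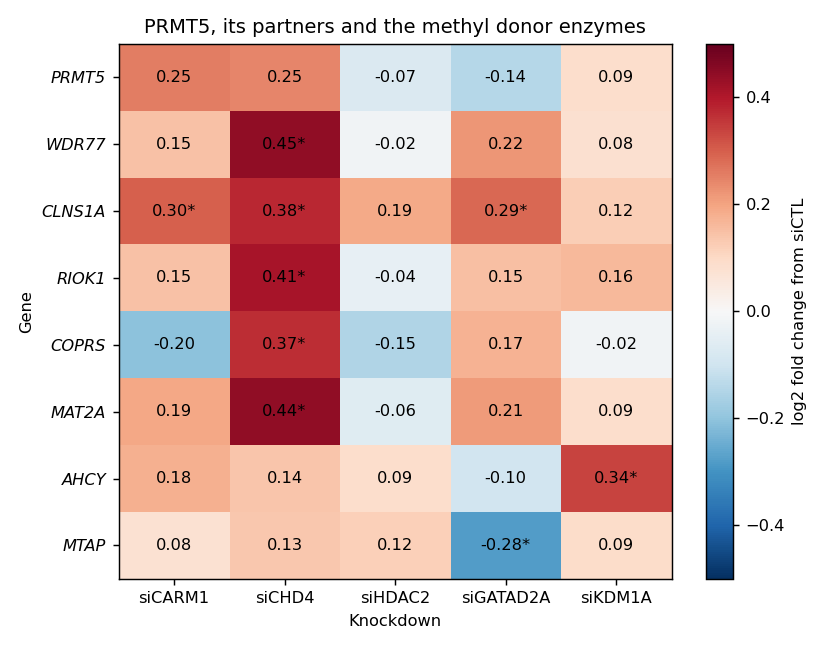
Log2 fold change from siCTL (color and printed value) of PRMT5, WDR77, 3 partners of PRMT5 and 3 enzymes of the methyl donor, in the 5 knockdowns, with an asterisk where a gene was called. WDR77, CLNS1A, RIOK1, COPRS and MAT2A carry an asterisk in siCHD4, and PRMT5 carries none.

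Genes with the most similar pattern were found by the root mean square difference of the 5 log2 fold changes over all tested genes. For PRMT6 they were PAFAH1B2 (0.048), SNTB1 (0.068) and CTIF (0.10), and 2 genes lay within 0.1 of it. For WDR77 they were MAT2A (0.029), RNF10 (0.032) and SCO1 (0.032) among 189 genes within 0.1. PRMT1 was nearest to C3orf80 (0.041), PRMT2 to MTHFD1 (0.044), PRMT3 to MRPL50 (0.038), PRMT5 to PWP1 (0.034), PRMT9 to MCTS1 (0.030) and PRMT7 to ZNF529 (0.029). No gene lay within 0.1 of CARM1, whose nearest was APOM at 0.49. The fall of CARM1 under its own siRNA enters this distance and was fixed in advance. Nearest genes share the 12 libraries and the siCTL mean with the member, and no function is implied.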

How the data were processed

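RNA was sequenced as paired ends from directional libraries on an Illumina HiSeq. Per the labels, sequencing was done at either of 2 companies, and which library went where is not given in the sources used here. The deposited values are raw counts of read pairs per Ensembl gene for each library. The authors made them, per the submitters' processing notes, with CASAVA 1.4 and STAR 2.7.10 on hg19, and they were neither normalized nor filtered. The annotation used for counting is not given in the sources used here. Of 3 count columns, that of the reverse strand was used, and counts on the other strand came to 7.93% to 8.40% of its total. Identifiers were matched to GENCODE 44 mapped to GRCh37 (96.7% of 60660). Library totals were 19308315 to 28648657 counts on genes per library (median 24292682).

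A coding gene was tested if the mean FPKM of any group passed 0.5. The test was made with edgeR 4.0.16 (TMM, glmQLFit, glmQLFTest) in a model of 6 group means over 12 libraries, with standard errors and 95% intervals from that fit. The biological coefficient of variation was 3.47%. Replicates of each group differed by more than sampling noise (chi-square per degree of freedom 1.77 to 4.97). Scripts were tested on simulated data. Alternatives were RLE factors, DESeq2 1.42.0, a replicate block, only the groups compared, unstranded counts, 3 other filters, no fold minimum, glmTreat, and each library left out. The genes, lists and tests were chosen with earlier results of these data known. Named were all members, the targeted genes, up to 3 genes per list with the largest change, and the nearest patterns, of which 3 per member were found and the text prints some. The 2 promoter motifs were chosen after the promoters were seen. R 4.3.3 was used.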

Additional observations from a re-analysis of the deposited data

How the results depend on the processing

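The 45 log2 fold changes of the 9 genes were computed under 22 alternatives, and none turned its direction while called. The setting without a fold minimum cannot lose a call. Leaving out a library of a group not compared keeps the counts of the groups compared. All 5 calls of PRMT6, those of PRMT1 in siCHD4 and siGATAD2A, that of WDR77 in siCHD4 and that of CARM1 in siCARM1 held in every alternative. The call of CARM1 in siKDM1A was made in 8 of them, ranging from 0.21 to 0.31, and was lost with DESeq2 (0.26). With the filter filterByExpr on every biotype, 1 of the 9 genes was called in siKDM1A. With no fold minimum the counts were 7 genes of the 9 in siCARM1, 7 in siCHD4 and 4 in siGATAD2A. Of all tested genes 46.7%, 65.7% and 51.5% passed in the same order. There were 59 of 90 differences between pairs of knockdowns, where 26.7% to 66.0% of tested genes passed, depending on the pair. Tested genes called lower and higher were 2962 and 3030 in siCARM1, 2256 and 2283 in siHDAC2, and 2618 and 2814 in siKDM1A, with 3272 higher in siGATAD2A. With glmTreat, which tests against a fold of 1.2, 2 of the 9 genes were called in siCARM1 and 1 in siKDM1A, with 13 differences between pairs. Of 12830 tested genes, glmTreat called 889 lower and 920 higher in siCARM1, 306 and 532 in siHDAC2, 1400 and 1060 in siGATAD2A, and 594 and 915 in siKDM1A. For the pairs under glmTreat and for filterByExpr no share over all tested genes is given, so those counts have no background here. The numbers follow from the threshold, which is what these settings change. The counts of the 9 genes in siCARM1 and of differences between pairs, here and below, include CARM1 under its own siRNA.

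Leaving out each library in turn gave 3 to 6 of the 9 genes called in siCARM1, 3 to 4 in siCHD4, 1 to 1 in siHDAC2, 2 to 2 in siGATAD2A and 2 to 3 in siKDM1A, 27 to 33 differences between pairs, and 9 to 9 genes that differed among the groups. Tested genes called lower were 1723 to 1983 in siCARM1, 3052 to 3271 in siCHD4, 1017 to 1230 in siHDAC2, 2168 to 2382 in siGATAD2A and 1333 to 1533 in siKDM1A, and those called higher 1700 to 2013, 2881 to 3082, 1178 to 1384, 1858 to 2025 and 1637 to 1847 in the same order. With all 12 libraries, 33.9% of differences between pairs were called over all tested genes, and 91.1% of tested genes differed among the groups. With a library left out neither share is given, so those 2 counts have no background here. A lone library was assumed to vary like the other groups.

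By the replicate numbers of the titles, same-numbered libraries deviated together with r from −0.21 to 0.19 over 15 pairs of groups, above 0.1 in 2. These values do not settle whether libraries of the same number were paired. With the replicate number as a block, 45 of the 45 values kept their call, and PRMT6 in siGATAD2A was at 0.75. Having 2 libraries a group, PRMT9 at 355 to 697 counts, and the shared siCTL libraries limit the precision of the values nearest to the fold minimum.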

Other observations

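Among readers of methylated arginine, SND1, a Tudor protein of RNA silencing and splicing complexes, was called higher in 4 knockdowns, at 0.35 in siCARM1, 0.39 in siCHD4, 0.31 in siHDAC2 and 0.38 in siGATAD2A, and was at 0.20 in siKDM1A, under the fold minimum (adjusted p from edgeR between 3.8e-10 and 9.8e-05 over the 5). SMN1, whose Tudor protein binds methylated Sm proteins, was called higher in siCARM1 (0.44), siCHD4 (0.41) and siGATAD2A (0.56), but it shares reads with the near-identical SMN2 and its values are uncertain. TDRD3, a Tudor protein that binds methylated histones, was called lower in siCHD4 (−0.30, edgeR adjusted p = 0.017). Its siCTL libraries were far apart, at 21.7 and 16.6 CPM, against 14.6 and 16.1 CPM in siCHD4. In all, 9 of 25 values of the 5 readers were called (36.0%), 8 of them higher, against 31.5% of the values of all tested genes.

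Among substrates, TAF15, an RNA-binding protein methylated by PRMT1, was called higher in siCARM1 (0.50), siCHD4 (0.45), siHDAC2 (0.49) and siKDM1A (0.30) and was at −0.02 in siGATAD2A. NCL (nucleolin) was called higher in siCHD4 (0.30). Of 30 values of 6 glycine-arginine-rich substrates 5 were called (16.7%), all higher, where 31.5% of the values of all tested genes were called and 15.9% were higher. SNRPD3, an Sm protein methylated by PRMT5, was called lower in siCARM1 (−0.68, edgeR adjusted p = 5.4e-12) and higher in siGATAD2A (0.63, edgeR adjusted p = 3.3e-12), while SNRPB and SNRPD1 were called in none, so that 2 of 15 values of Sm genes were called (13.3%, against 31.5% over all tested genes). BTG2, which binds PRMT1, was called higher in siHDAC2 (0.28) and siKDM1A (0.31), and BTG1 in none.

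Of the genes tied to deimination or proposed demethylation of arginine, PADI2 was measured at 4.21 and 4.14 CPM in siCTL, 1.24 and 0.767 CPM in siCHD4, and was called lower there (−2.06) and in siGATAD2A (−1.13). PADI3 was at 0.875 and 1.38 CPM in siCTL and at 4.42 and 5.49 CPM in siCHD4, the only group in which its mean passed 0.5 FPKM, so that it had to differ to be tested and no test is given. JMJD6 was called higher in siCHD4 (0.30) and siGATAD2A (0.30). PADI1 and PADI4 had too few counts to be tested. GATAD2A mRNA was called higher in siCHD4 (1.09, edgeR adjusted p = 1.3e-17).

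Markers of the cell line also differed between groups. Of the genes known in HEK293 lines, 3 of 5 were tested, and the summed level of the 5 was 76.4 and 77.3 FPKM in siCTL, 132 and 140 FPKM in siCARM1, 126 and 129 FPKM in siCHD4, 97.6 and 101 FPKM in siHDAC2, 50.3 and 51.1 FPKM in siGATAD2A and 120 and 127 FPKM in siKDM1A, most of it VIM. LHX1 went the other way in siCARM1 (3.01 and 3.03 FPKM) and siCHD4 (2.72 and 2.53 FPKM), against 4.07 and 3.58 FPKM in siCTL. In the other knockdowns LHX1 ran from 2.99 to 3.92 FPKM. The 4 breast cancer markers summed to 45.9 and 46.7 FPKM in siCTL and to 36.1 to 46.7 FPKM in the knockdowns, most of it KRT19. Of 10 tested values of these markers 6 were called lower and 0 higher (60.0%). Over all tested genes 31.5% of values were called and 15.6% were lower. GATA3 was at 3.01 to 5.05 FPKM over the libraries, and ESR1 and TFF1 were near 0. The part of these markers in the results above was not tested.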
